A study of Arabidopsis thaliana with 30 samples.

Results

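The response of Arabidopsis thaliana seedlings to 3 h under liquid medium was compared between Col-0 wild type and ein2-5, a mutant of EIN2. The quantity described is the interaction, the log2 fold change of a transcript from untreated to covered seedlings in ein2-5 minus the same fold change in wild type. It rests on 12 of the 30 libraries of the series, 3 in each of 4 groups, and was taken for each of 21256 genes. All seedlings were 12 days old, were grown on agar plates with sucrose, and were collected whole. The groups were Col-0 untreated, Col-0 covered for 3 h with liquid Murashige and Skoog medium (MS), ein2-5 untreated, and ein2-5 covered for 3 h with MS. The labels call the covered seedlings mock-treated, since they served as controls for the inhibitor antimycin A, which none of these 12 received. The labels also name the time as the batch (0 h for untreated, 3 h for covered), so the effect of the medium, the hours passed and any effect of batch cannot be told apart, and the interaction says only that their sum differed between genotypes. ein2-5 is 1 allele, and no rescued line is among the samples.

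Ethylene is a gas hormone. Its receptors in the endoplasmic reticulum act with the kinase CTR1 to hold EIN2 inactive, and when ethylene binds, a part of EIN2 is released that stabilises the transcription factors EIN3 and EIL1 in the nucleus. Liquid over a shoot slows the exchange of gases, so that submerged plants are known to trap ethylene and to run short of oxygen, and pouring liquid over a plant is also a touch stimulus and a new supply of nutrients.

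Transcripts that fell under the medium in wild type and fell less, or not at all, in ein2-5 made up most of the interaction. Of the 21256 genes, 313 (1.47%) passed at an adjusted p under 0.05 by edgeR's quasi-likelihood test with Benjamini-Hochberg adjustment, and they are called below. Of these 252 were above 0 (1.19% of genes tested) and 61 below 0 (0.287%). Among the 252, wild type fell in 198 (17.4% of all genes did), ein2-5 fell in 96 of those 198 (14.4% of all genes), and wild type fell while ein2-5 rose in 19. Their median fold change on the log2 scale was -0.99 in wild type and -0.06 in ein2-5. Among the 61, wild type rose in 47 while ein2-5 rose in 15 (15.8% and 17.3% of all genes), and the medians were 0.59 and -0.09. The size of the whole response, as the mean signed log2 change over 9261 genes (43.6%) called for the effect averaged over genotypes, was 0.659, 0.627 and 0.639 in the 3 wild-type libraries and 0.580, 0.588 and 0.654 in the 3 ein2-5 libraries, given as a description with no test.

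An interaction can come from the untreated seedlings as well as from the covered ones. Of the 252 genes above 0, untreated ein2-5 was already lower than untreated wild type in 108 (2.82% of all genes were), and covered ein2-5 was higher than covered wild type in 163 (5.87% of all genes). The median genotype difference of the 252 was -0.39 on the log2 scale before covering and 0.52 after it. Of the 61 genes below 0, covered ein2-5 was lower than covered wild type in 50 (4.55% of all genes). Over all genes, 4.33% differed between genotypes untreated and 10.4% under the medium. These contrasts share libraries with the interaction, so the counts describe it and add no independent evidence.

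**Figure D1:**
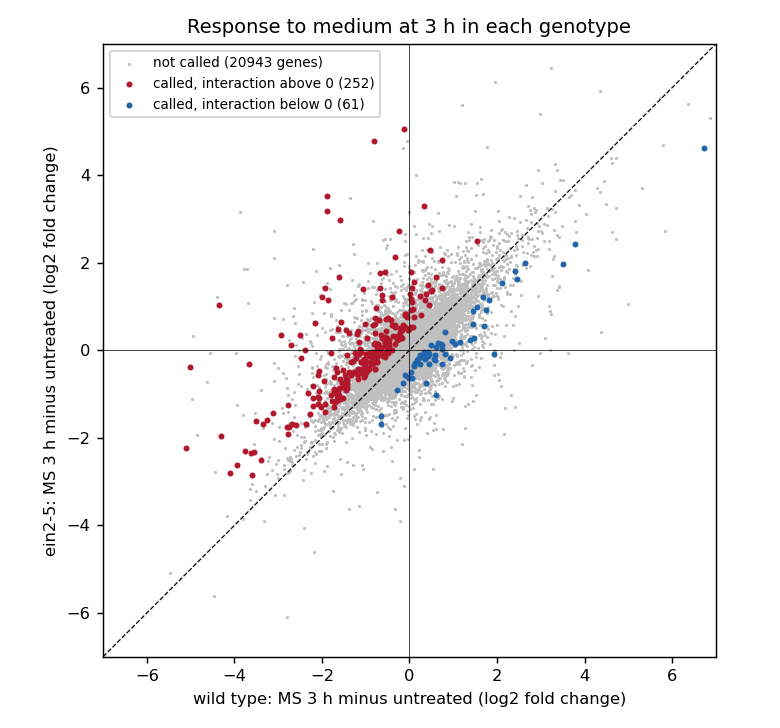
Log2 fold change from untreated to MS 3 h in wild type (horizontal) and in ein2-5 (vertical) for the genes tested, with the 252 called genes above 0 in red, the 61 below 0 in blue and equal change dashed. Most red points lie left of 0 in wild type and nearer to 0 in ein2-5, and 5 genes lie outside the axes.

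One library stood apart. Replicate 3 of ein2-5 under MS differed from replicates 1 and 2 of its group by 35.9 and 35.2 chi-square units per degree of freedom over genes, against 4.71 between those 2 and at most 21.2 for any other pair within a group of the series. It lay at least 2-fold above the mean of the other 2 in 528 of the 21256 genes and at least 2-fold below it in 611 (median log2 difference 0.01). Among the 252 called genes above 0 it lay so far above in 20 and below in 3 (median 0.20). Among the 61 below 0 it did so in none (median -0.21). These calls were made with this library included. The summed level of 23 nuclear photosynthesis genes was 101100 CPM (read pairs scaled to library size) in it, against 133500 and 128100 in replicates 1 and 2, 133800 to 158400 in covered wild type, and 105900 to 121300 in the 6 untreated libraries. Summed root hair genes stood at 121 CPM in it against 93.7 and 96.2, with 82.9 to 89.4 in untreated ein2-5 and 123 to 171 in wild type, and summed endodermis genes at 90.6 against 77.0 and 88.5. No marker of these lists was at 0 in any group. The part of leaf and root content in the results was not tested, and in whole seedlings fewer cells of a type and less RNA per cell cannot be told apart. Without that library 181 genes were called (0.846%), 159 above (0.743%) and 22 below 0 (0.103%), and 158 of them were among the 313. Beside most called genes below stands the value, or the adjusted p, without it. Total counts were 22.7 to 32.6 M read pairs in the 12 libraries, and EIN2 transcript itself lay at 102 to 120 CPM in wild type and 39.9 to 48.7 CPM in ein2-5, with an interaction of 0.00 ± 0.13 (log2 ± SE, adjusted p = 0.997).

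The genes with the smallest adjusted p-values were little-known ones that dropped steeply in wild type and were chosen here after their values were seen. The 300 bases before the gene start are printed for AT2G20670, at the head of the list, and for OEP6, the called gene below 0 with the smallest adjusted p. They are followed by the 2 named called genes with the smallest p among those with ACGCGT in that window, TCH2 and AT1G66090. EXLA1 was the other such gene. AT1G66090, annotated as a disease resistance protein, had an interaction of 2.47 ± 0.45 (adjusted p = 0.00248, 2.22 without the library that stood apart). It rose in ein2-5 (2.14 ± 0.33) and its change in wild type did not pass (-0.33 ± 0.31, adjusted p = 0.449). Capitals mark ATGTA (a core of EIN3-bound elements), GCCGCC (the GCC box of ethylene response factors), CACGTG (a G-box) and ACGCGT (a core bound by calmodulin-binding CAMTA factors), each searched on both strands, and no base fell in a pair of motifs. Coordinates and gene starts are those of the RefSeq annotation of TAIR10.1.
AT2G20670, chr2:8913748-8914047, minus strand: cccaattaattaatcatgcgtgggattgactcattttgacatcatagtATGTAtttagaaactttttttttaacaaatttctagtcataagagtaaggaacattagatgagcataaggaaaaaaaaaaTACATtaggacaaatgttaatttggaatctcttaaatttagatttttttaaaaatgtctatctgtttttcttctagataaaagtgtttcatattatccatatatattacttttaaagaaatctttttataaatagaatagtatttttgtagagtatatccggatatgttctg
OEP6 (AT3G63160), chr3:23334035-23334334, minus strand: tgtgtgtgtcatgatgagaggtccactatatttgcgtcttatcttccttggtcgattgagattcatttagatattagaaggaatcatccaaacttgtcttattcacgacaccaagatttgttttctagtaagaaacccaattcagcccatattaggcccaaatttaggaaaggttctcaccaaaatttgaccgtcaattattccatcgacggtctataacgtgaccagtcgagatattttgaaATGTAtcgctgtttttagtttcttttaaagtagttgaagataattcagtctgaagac
TCH2 (AT5G37770), chr5:14999620-14999919, minus strand: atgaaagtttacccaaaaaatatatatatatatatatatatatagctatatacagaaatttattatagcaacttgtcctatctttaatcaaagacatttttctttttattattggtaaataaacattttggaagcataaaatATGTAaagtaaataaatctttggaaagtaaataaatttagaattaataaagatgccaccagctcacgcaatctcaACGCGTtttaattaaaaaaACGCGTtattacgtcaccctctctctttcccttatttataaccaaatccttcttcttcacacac
AT1G66090, chr1:24601733-24602032, plus strand: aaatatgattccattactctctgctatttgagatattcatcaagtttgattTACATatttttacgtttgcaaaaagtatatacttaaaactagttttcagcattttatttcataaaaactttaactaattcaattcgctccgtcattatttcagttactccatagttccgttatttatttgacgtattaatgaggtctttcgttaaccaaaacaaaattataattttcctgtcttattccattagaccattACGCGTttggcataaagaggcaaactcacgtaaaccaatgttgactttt

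ATGTA was in 59.3% of the 21130 windows of genes tested, in 60.3% of the 252 windows of called genes above 0 and in 60.3% of the 58 below 0. GCCGCC was in 2.32%, 1.19% and 1.72% of them, and CACGTG in 7.85%, 10.7% and 13.8%. ACGCGT was in 2.06% of all windows and in 17 of the 252 (6.75%), with 1 of the 58 (1.72%). These shares are a description of letters, with no test, and a match is not a bound site.

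OXS3 (AT5G56550), a nuclear protein that raises tolerance to oxidants and metals, shared the smallest adjusted p with AT2G20670. Its level was 59.5, 61.0 and 54.3 CPM in untreated wild type and 2.92, 3.17 and 2.75 CPM under MS. In ein2-5 it went from 36.1, 29.8 and 26.9 CPM to 6.86, 8.49 and 8.55 CPM. The 4 groups did not overlap: ein2-5 started lower and ended higher, so its fall was the smaller at both ends. The fold changes were -4.30 ± 0.17 and -1.95 ± 0.15, and the interaction was 2.35 ± 0.22 (adjusted p = 2.45e-07, 2.30 without the library that stood apart).

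AT2G20670 belongs to a family of plant proteins annotated only by the domain DUF506. It stood at 342, 387 and 367 CPM in untreated wild type and at 32.0, 32.1 and 32.6 CPM under MS, against 276, 232 and 248 CPM and then 81.2, 90.3 and 75.8 CPM in ein2-5. Again no groups overlapped, and both genotypes fell, ein2-5 less (interaction 1.89 ± 0.18, adjusted p = 2.45e-07, 1.95 without the library). Of the 12 tested genes with that annotation, 3 were called above 0 (1.19% of all genes tested were) and none was called below 0. The other two were AT4G32480 (1.45 ± 0.18, adjusted p = 1.67e-05, 1.42 without the library) and AT3G07350 (1.61 ± 0.20, adjusted p = 2.84e-05, 1.41 without it), and the same 3 were called without the library. The 12 had a median fold change of -1.59 in wild type and -0.49 in ein2-5 on the log2 scale, beside 0.00 and 0.02 over all genes tested.

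AT5G62130, annotated as a Per1-like protein, took a different course. It was higher in ein2-5 throughout, at 164, 149 and 164 CPM untreated and 77.8, 81.8 and 84.0 CPM under MS, against 74.2, 70.4 and 64.6 CPM and then 12.1, 14.5 and 15.4 CPM in wild type. Its covered ein2-5 libraries thus lay above untreated wild type. The interaction was 1.35 ± 0.13 (adjusted p = 2.74e-07, 1.32 without the library), on top of a genotype difference of 1.19 ± 0.09 before covering. Of its values in the 12 libraries 25.0% were not whole, since some of its read pairs also mapped elsewhere.

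**Figure D2:**
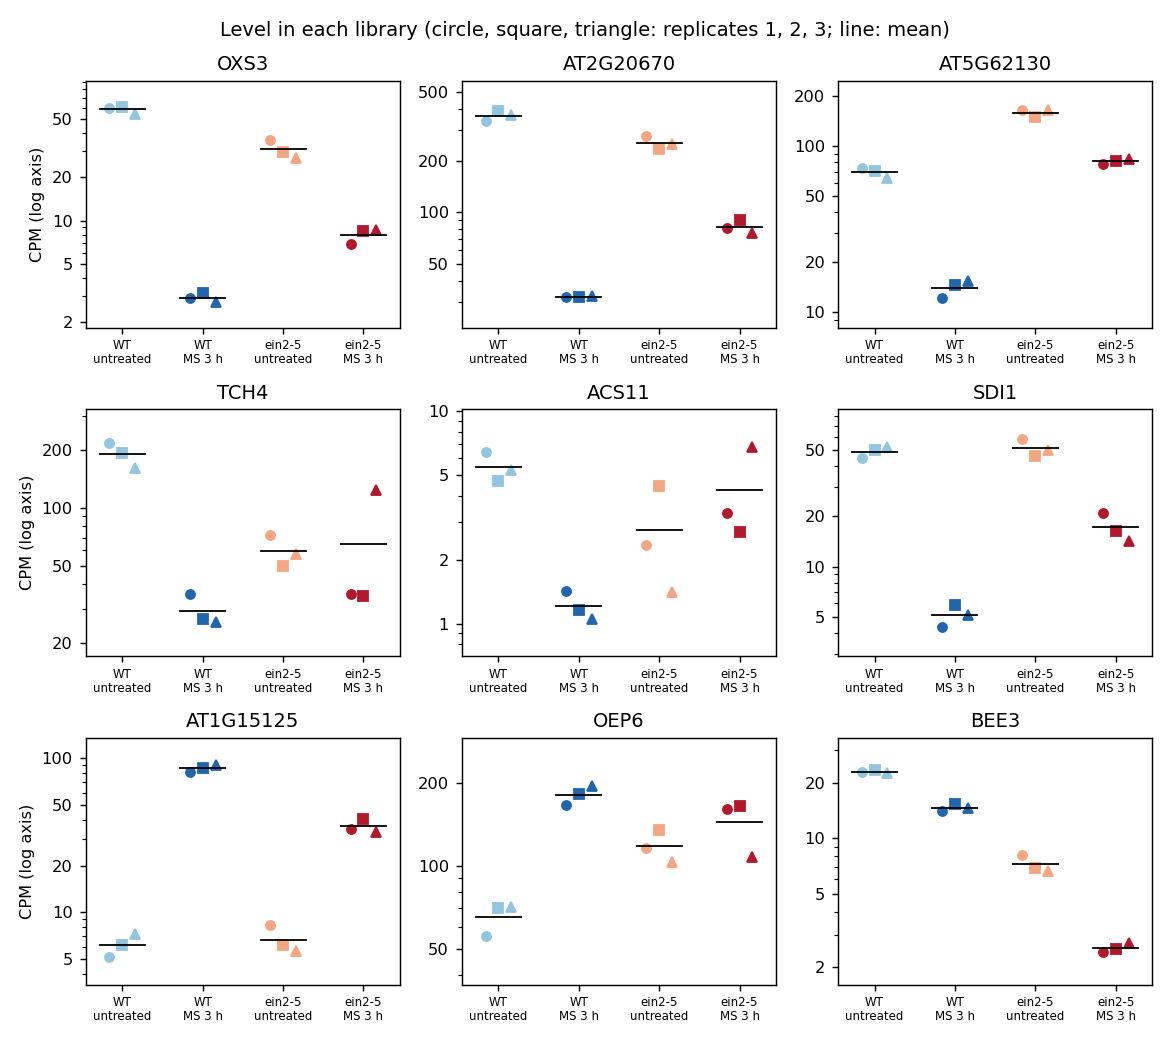
Level of 9 named genes in CPM (log axis) in each of the 12 libraries, with the mean as a line. OXS3, AT2G20670 and SDI1 fell in both genotypes and less in ein2-5, AT1G15125 rose in both and less in ein2-5, and replicate 3 of ein2-5 under MS stands above its group for TCH4 and ACS11 and below it for OEP6.

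The EXORDIUM family holds cell-wall proteins that promote growth with brassinosteroid and sugar supply. Of its 6 tested members, a list made after its values were seen, 5 fell and none rose in wild type, and 4 fell and none rose in ein2-5 (5 without replicate 3). PHI-1, a member of it, went from 82.9, 85.1 and 80.0 CPM to 9.78, 4.10 and 5.53 CPM in wild type. The ein2-5 libraries held 29.9, 28.2 and 23.1 CPM untreated and 13.2, 11.2 and 41.0 CPM under MS. Replicate 3 was above all untreated ein2-5 libraries and the other 2 were below them. The interaction was 3.35 ± 0.50 (adjusted p = 2.42e-04), or 2.52 without replicate 3 (adjusted p = 5.58e-04). Of the 6 members 4 were called above 0 and stayed called without that replicate: PHI-1, EXO (1.67 ± 0.34, 1.13 without it), EXL3 (0.68 ± 0.13, 0.65 without it) and EXL5 (0.90 ± 0.18, 0.69 without it). All 4 fell in wild type, and EXO, EXL3 and EXL5 fell in ein2-5 too. Over all genes tested 17.4% fell in wild type and 14.4% in ein2-5, and 1.19% were called above 0 for the interaction. The fold change of PHI-1 in ein2-5 was -0.32 ± 0.34 (adjusted p = 0.527) with replicate 3, and without it PHI-1 fell by 1.15 (adjusted p = 0.00374). The expansin EXPA1, described below, rose in wild type. The expansin-like EXLA1, of a family of wall-loosening proteins, had an interaction of 2.04 ± 0.40, or 1.35 without replicate 3, and overlaps a neighbouring gene, from which counting without strand cannot separate it.

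Of 18 touch and early stress regulators tested, 8 rose and 3 fell in wild type (median 0.41 on the log2 scale), and the 3 that fell were TCH2, TCH3 and TCH4. In ein2-5 13 rose and none fell (median 1.29), or 11 and 1 without replicate 3 (median 0.85). Called for the interaction were 3 above 0 and none below, with a median interaction of 0.82 that came to 0.50 without replicate 3. Over all genes tested 15.8% rose and 17.4% fell in wild type, and 17.3% rose and 14.4% fell in ein2-5. For the interaction 1.19% of all genes were called above 0. TCH4, a xyloglucan endotransglucosylase that remodels the wall and is induced by touch, stood at 215, 192 and 161 CPM in untreated wild type and at 35.8, 26.4 and 25.5 CPM under MS. Its levels in ein2-5 were 72.2, 49.9 and 57.7 CPM untreated and 35.7, 35.0 and 124 CPM under MS. Replicates 1 and 2 of covered ein2-5 lay within the range of covered wild type and replicate 3 far above it, so without replicate 3 the interaction (2.81 ± 0.48, adjusted p = 0.00158) came to 1.94 (adjusted p = 0.00338) and rested on the lower level of untreated ein2-5. Its fold change in ein2-5 was 0.12 ± 0.33 (adjusted p = 0.833) with replicate 3, and without it TCH4 fell by 0.75 (adjusted p = 0.0403). TCH2, a calmodulin-like calcium sensor, fell in wild type from 39.7, 38.0 and 35.2 CPM to 17.6, 15.0 and 18.0 CPM. In ein2-5 it was 25.3, 26.8 and 23.8 CPM before and 25.4, 23.8 and 37.2 CPM after covering, a change that did not pass (0.18 ± 0.13, adjusted p = 0.32). Its interaction was 1.34 ± 0.19 (adjusted p = 1.43e-04, 1.11 without replicate 3), and that of MSS3, another calmodulin-like protein, was 1.33 ± 0.17 (adjusted p = 3.86e-05, 1.12 without replicate 3). The third called regulator of the list, the zinc finger gene SZF1, was not called without it (adjusted p = 0.0531).

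Sulfate genes formed a further group, listed after its values were seen. SDI1, which is induced by sulfur deficiency and restrains glucosinolate synthesis, fell from 44.9, 50.1 and 52.1 CPM to 4.34, 5.89 and 5.11 CPM in wild type and from 58.5, 46.0 and 50.0 CPM to 21.0, 16.3 and 14.3 CPM in ein2-5. The genotypes overlapped before covering and were apart after it (interaction 1.68 ± 0.29, adjusted p = 0.00179, 1.80 without replicate 3). APR1, the APS reductase of sulfate assimilation, fell in wild type from 165, 206 and 203 CPM to 112, 88.6 and 89.2 CPM. In ein2-5 it was 166, 156 and 154 CPM and then 166, 149 and 133 CPM, with no change that passed (-0.09 ± 0.10, adjusted p = 0.543), and the interaction was 0.90 ± 0.14 (adjusted p = 4.23e-04, 0.98 without replicate 3). Of 19 tested members 6 were called above 0 and none below, namely SDI1, SDI2, LSU3, SHM7, APR1 and APS3, and 5 of them without replicate 3. In wild type 13 of the 19 fell and none rose, and in ein2-5 8 fell and 3 rose. The medians of the fold changes were -0.66 and -0.09. Over all genes tested 15.8% rose and 17.4% fell in wild type, and 17.3% rose and 14.4% fell in ein2-5. For the interaction 1.19% of all genes were called above 0. LSU3 lost its call without any one of 7 of the 12 libraries, and APS3 without any one of 8.

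Nitrate and carbon genes were called as well. Of 19 nitrate response genes 4 were above 0 and none below, with and without replicate 3: NIA2, a nitrate reductase (0.44 ± 0.09, 0.38 without it), HHO2, a repressor of nitrate uptake (0.65 ± 0.11, 0.63), LBD37, a repressor of nitrogen genes (0.76 ± 0.13, 0.59), and BT2. BT2, a scaffold protein of the BTB and TAZ family that restrains nitrate uptake, fell from 307, 286 and 292 CPM to 17.4, 15.7 and 18.5 CPM in wild type and from 210, 157 and 138 CPM to 25.1, 21.4 and 26.1 CPM in ein2-5. The ein2-5 libraries lay below wild type before covering and above it after, where the genotype difference was 0.49 ± 0.16 (adjusted p = 0.0416). The interaction was 1.30 ± 0.21 (adjusted p = 8.49e-04, 1.25 without replicate 3). BT5 of the same family fell in both genotypes too (interaction 1.29 ± 0.19, adjusted p = 1.68e-04, 1.31 without replicate 3). Sugar starvation genes, which rise when sugar runs out, fell in 15 of 17 cases in each genotype and 2 were called above 0. ASN1, asparagine synthetase, fell from 116, 115 and 134 CPM to 33.7, 38.0 and 38.2 CPM in wild type and from 127, 115 and 128 CPM to 74.2, 73.2 and 54.2 CPM in ein2-5 (0.86 ± 0.18, adjusted p = 0.00871, 0.99 without replicate 3). The other, DIN1, was not called without replicate 3 (adjusted p = 0.0601). Still, 2 members of the list were called above 0 without that replicate, as with it. KMD1, an F-box protein that targets cytokinin response regulators for breakdown, had an interaction of 1.25 ± 0.18 (adjusted p = 1.45e-04, 1.36 without replicate 3). Of 12 phosphate starvation genes, 10 fell in wild type and 5 in ein2-5, where 1 rose. None was called for the interaction, though all 12 values lay above 0 (median 0.80), as did 11710 of the 21256 genes. Over all genes tested 17.4% fell in wild type and 14.4% in ein2-5, and 1.19% were called above 0 for the interaction.

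Defence genes were in 3 lists, and members of each rose in both genotypes. Of 19 salicylic acid genes 4 rose and 6 fell in wild type, and 10 rose and 2 fell in ein2-5 (8 and 1 without replicate 3). Of 24 jasmonate genes 8 rose and 5 fell in wild type, and 14 rose and 3 fell in ein2-5 (12 and 3 without it). Of 18 glucosinolate and camalexin genes 10 rose and 2 fell in wild type, and 15 rose and none fell in ein2-5 (14 and none without it). Over all genes tested 15.8% rose and 17.4% fell in wild type, and 17.3% rose and 14.4% fell in ein2-5. For the interaction 1.19% of all genes were called above 0. TAT3, a tyrosine aminotransferase induced by jasmonate, had the largest interaction among the named genes. It stood at 16.9, 15.2 and 7.83 CPM in untreated and 5.96, 1.92 and 2.70 CPM in covered wild type. The mutant had 1.97, 4.63 and 1.08 CPM untreated and 4.64, 33.4 and 50.3 CPM under MS. The lowest of the covered ein2-5 libraries lay at the highest of the untreated ones and the other two far above (5.41 ± 1.04, adjusted p = 0.00436, 4.78 without replicate 3). ABCG40, a transporter of abscisic acid, is in none of these 3 lists but in that of mitochondrial dysfunction genes. In ein2-5 it went from 2.69, 6.64 and 3.46 CPM to 24.0, 24.8 and 77.2 CPM. In wild type it was 23.6, 10.7 and 15.8 CPM and then 32.0, 16.3 and 14.4 CPM, a change that did not pass (adjusted p = 0.513). All covered ein2-5 libraries lay above the untreated ones, and 2 of them lay within the range of covered wild type. Its interaction was 2.96 ± 0.52 (adjusted p = 0.0019), or 2.18 without replicate 3. Of the salicylic acid genes 4 were called above 0 (median 0.93, 0.42 without replicate 3). CBP60G, a calmodulin-binding activator of salicylic acid synthesis, went from 4.23, 6.19 and 5.50 CPM to 13.6, 16.9 and 16.9 CPM in ein2-5 and from 9.40, 9.62 and 8.97 CPM to 12.1, 7.85 and 10.2 CPM in wild type. It rose in ein2-5 (1.57 ± 0.21, adjusted p = 4.04e-07) and not in wild type (0.11 ± 0.20, adjusted p = 0.717), and the interaction was 1.46 ± 0.29 (adjusted p = 0.00557, 1.41 without replicate 3). PBS3, which makes the precursor of salicylic acid, was called with (1.88 ± 0.39) and without replicate 3 (1.46), while EDS5 and SARD1 were not called without it. Without that replicate 4 members of the list were again called above 0, since others gained a call. Of the jasmonate genes 3 were called, and the lipoxygenases LOX3 and LOX4, which start jasmonate synthesis, were not called without replicate 3 (adjusted p = 0.0953 and 0.0666). The same held for the indole glucosinolate enzymes CYP79B2 and CYP83B1, which rose in both genotypes, and for CYP81D8. CYP81D8, like ABCG40, is in the mitochondrial dysfunction list. Of its 17 tested genes 2 were called above 0 and none below, or 1 and none without replicate 3. All 17 values lay above 0 (median 0.87, 0.38 without replicate 3). HSP101, a chaperone of the heat shock response, kept its call (1.0 ± 0.21, 0.71 without replicate 3).

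**Figure D3:**
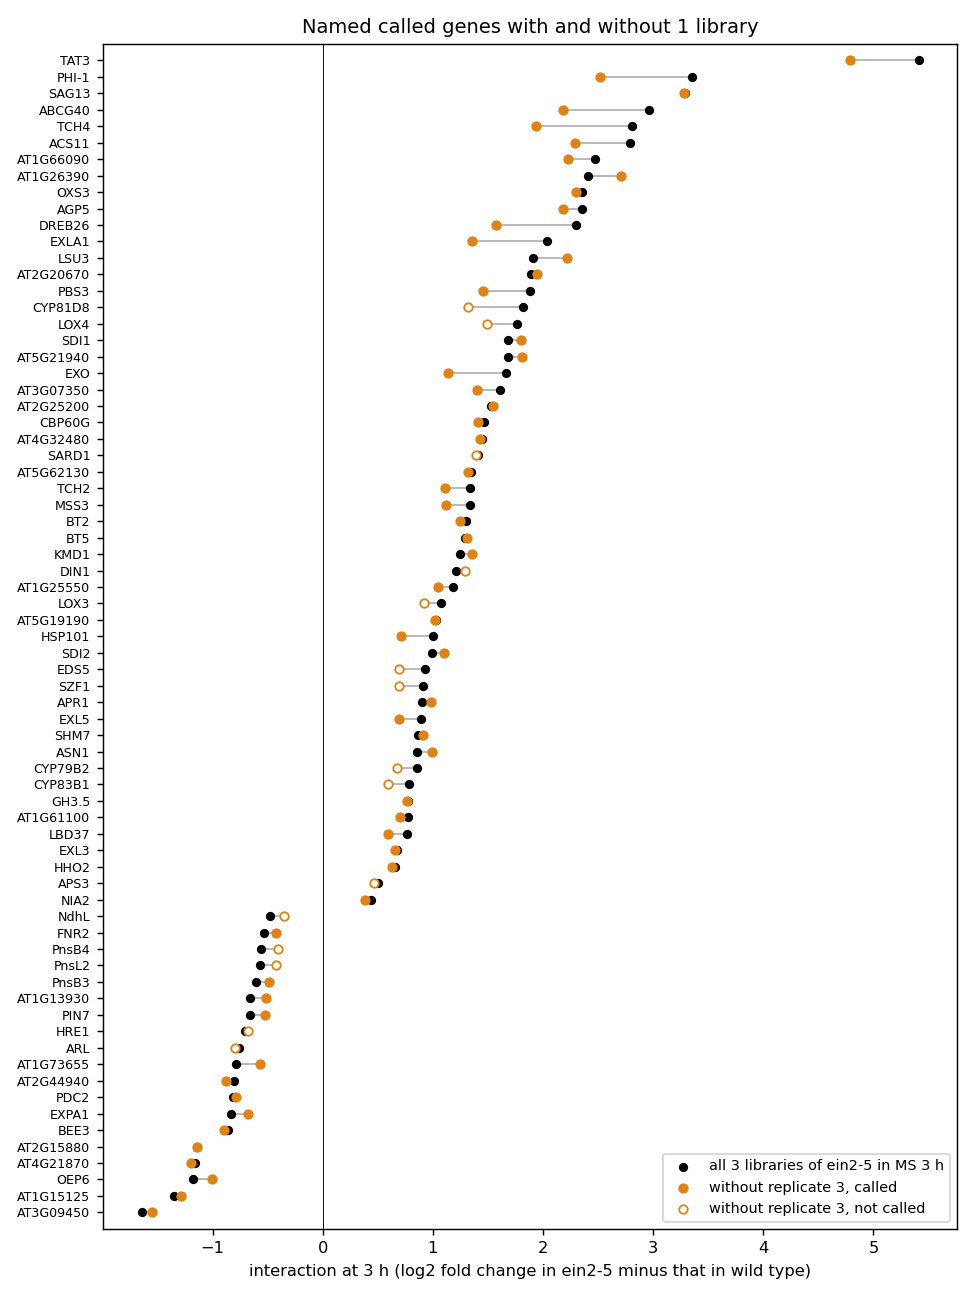
Interaction on the log2 scale of the 71 named called genes with all libraries (black) and without replicate 3 of ein2-5 under MS (orange, filled where called). Direction was kept by all 71, 56 stayed called and 15 did not, and TCH4, DREB26, EXLA1, PHI-1 and ABCG40 moved farthest towards 0.

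Several genes of the ethylene pathway itself differed between genotypes in level. Calls for the interaction were few among them, as they were over all genes tested (1.47%). In lists this short, few or no calls do not set the pathway apart from all genes. Of 15 genes of ethylene perception and signalling 6 were lower and 2 higher in untreated ein2-5. Of all genes 4.33% differed there, and 2.82% were lower. None was called for the interaction, 9 of the 15 values lay above 0 and the median interaction was 0.03. ETR2, an ethylene receptor whose transcript is raised by ethylene, rose in wild type from 12.9, 15.1 and 15.9 CPM to 28.1, 28.2 and 33.4 CPM. It rose also in ein2-5, from 6.12, 4.79 and 5.63 CPM to 7.55, 8.91 and 7.28 CPM. All ein2-5 libraries lay below all wild-type ones, and the fold changes of 1.03 ± 0.15 and 0.52 ± 0.17 did not differ past the threshold (interaction -0.51 ± 0.22, adjusted p = 0.29). EBF2, an F-box protein that removes EIN3, was 64.8 to 80.2 CPM untreated and 80.7 to 87.0 CPM under MS in wild type and 20.9 to 30.5 CPM and 28.8 to 33.8 CPM in ein2-5 (interaction 0.07 ± 0.20, adjusted p = 0.913). The receptor gene ERS1 stood at -0.03 ± 0.15, ERS2 at -0.48 ± 0.22 and EBF1 at 0.11 ± 0.10, and the defence outputs CHI-B and HEL at 0.06 ± 0.16 and 0.14 ± 0.23, none called. ERF1, a transcription factor target of EIN3, was at or below 0.852 CPM in all 12 libraries, too few counts for a change to be detectable. Among 22 ethylene-responsive genes 1 was called, ARL, a growth gene of the ARGOS family. It was 15.0, 12.8 and 14.6 CPM and then 20.4, 21.4 and 21.2 CPM in wild type, and 4.58, 6.02 and 5.50 CPM and then 4.19, 4.99 and 4.93 CPM in ein2-5. It rose in wild type and did not pass in ein2-5, but its interaction (-0.76 ± 0.20, adjusted p = 0.048) was not called without any one of 10 of the 12 libraries, replicate 3 among them.

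Of 16 ethylene biosynthesis genes ACS11, an ACC synthase of the step that limits ethylene production, was the one called. It fell in wild type from 6.42, 4.67 and 5.31 CPM to 1.42, 1.16 and 1.06 CPM. In ein2-5 it was 2.35, 4.47 and 1.42 CPM untreated and 3.33, 2.70 and 6.79 CPM under MS, where the groups overlapped (0.63 ± 0.31, adjusted p = 0.131). The interaction was 2.79 ± 0.46 (adjusted p = 0.00114, 2.29 without replicate 3). ACO1, an ACC oxidase that makes ethylene, stood at -0.45 ± 0.15 (adjusted p = 0.138), and ACS6 at 0.67 ± 0.22 (adjusted p = 0.12).

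Low-oxygen genes were called in 2 of 35 cases, both below 0 (1.47% of all genes were called, 0.287% below 0). PDC2, a pyruvate decarboxylase of ethanol fermentation, rose from 12.0, 22.9 and 16.2 CPM to 89.4, 97.2 and 93.6 CPM in wild type and from 18.1, 26.8 and 22.2 CPM to 70.6, 71.3 and 67.1 CPM in ein2-5. Untreated levels overlapped and covered levels did not, with ein2-5 lower (-0.81 ± 0.19, adjusted p = 0.0218, -0.79 and 0.0499 without replicate 3), and the call was lost without any one of 5 other libraries. HRE1, a group VII ethylene response factor that sustains low-oxygen gene activity, rose in wild type from 7.69, 9.30 and 11.2 CPM to 14.6, 17.2 and 15.5 CPM. In ein2-5 it was 13.7, 12.6 and 12.1 CPM and then 14.4, 12.3 and 12.7 CPM, with no change that passed (0.04 ± 0.12, adjusted p = 0.852). Its interaction of -0.70 ± 0.17 (adjusted p = 0.0272) was not called without replicate 3 (adjusted p = 0.0677), and HRE1 overlaps another gene. ADH1, alcohol dehydrogenase, rose in wild type (1.03 ± 0.19) and stood at 0.31 ± 0.19 in ein2-5 (adjusted p = 0.239), and the difference did not pass (-0.73 ± 0.27, adjusted p = 0.191). PDC1, PGB1 and PCO1 stood at -0.29 ± 0.17, -0.56 ± 0.20 and -0.40 ± 0.14, not called. Of the 35 genes 12 rose and 7 fell in wild type, where 15.8% and 17.4% of all genes did. In ein2-5 7 rose and 7 fell, where 17.3% and 14.4% of all genes did. The median interaction was -0.19, or -0.15 without replicate 3, beside 0.04 over all genes tested.

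Other called genes below 0 are given next. AT1G15125, annotated as a methyltransferase, rose from 5.10, 6.19 and 7.23 CPM to 81.1, 86.9 and 90.4 CPM in wild type. In ein2-5 it rose from 8.26, 6.15 and 5.59 CPM to 35.0, 40.4 and 33.0 CPM. Untreated libraries overlapped and covered ones were apart (-1.35 ± 0.24, adjusted p = 0.00188, -1.29 without replicate 3). It overlaps a neighbouring gene. OEP6, a protein of the chloroplast outer envelope, rose from 55.4, 70.0 and 70.7 CPM to 166, 183 and 195 CPM in wild type. In ein2-5 it began at 116, 135 and 103 CPM and stood at 161, 166 and 108 CPM under MS (0.29 ± 0.14, adjusted p = 0.111). Without replicate 3, the lowest of them, OEP6 rose in ein2-5 as well (0.47, adjusted p = 0.00636). All untreated ein2-5 libraries lay above untreated wild type (interaction -1.18 ± 0.20, adjusted p = 0.00128, -1.0 without replicate 3). BEE3, a transcription factor induced early by brassinosteroid, fell in wild type from 22.8, 23.4 and 22.7 CPM to 14.0, 15.4 and 14.6 CPM and in ein2-5 from 8.13, 6.92 and 6.63 CPM to 2.42, 2.51 and 2.71 CPM. It was thus the reverse of most called genes, with the larger fall in ein2-5 (-0.86 ± 0.17, adjusted p = 0.00499, -0.90 without replicate 3). The expansin EXPA1 (-0.84 ± 0.17) and the auxin efflux carrier PIN7 (-0.66 ± 0.14) rose in both genotypes and less in ein2-5, with values of -0.68 and -0.53 without replicate 3.

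Of 15 nuclear subunits of the chloroplast NDH complex, which carries electrons around photosystem I, 4 were called below 0 (0.287% of all genes tested were), in a list made after its values were seen. They were PnsB3 (-0.60 ± 0.13), PnsB4 (-0.56 ± 0.14), PnsL2 (-0.57 ± 0.13) and NdhL (-0.48 ± 0.12). Without replicate 3, whose photosynthesis sum was low, PnsB3 was the one still called. PnsB3, PnsB4 and NdhL had 33.3%, 41.7% and 50.0% of values not whole, and all 4 genes overlap others. Of the 23 nuclear photosynthesis genes none was called, although all 23 values lay below 0 (median -0.24, or -0.10 without replicate 3). They rose in 16 cases in wild type and 12 in ein2-5, or 16 in ein2-5 without replicate 3. Over all genes tested 15.8% rose in wild type and 17.3% in ein2-5. Of the root hair, endodermis, cell cycle, clock, flavonoid, aquaporin and abscisic acid lists no member was called. With 6 to 21 tested genes in each and 1.47% of all genes called, this does not set them apart. Aquaporins fell in 14 of 18 cases in wild type and 15 in ein2-5 (17.4% and 14.4% of all genes).

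**Figure D4:**
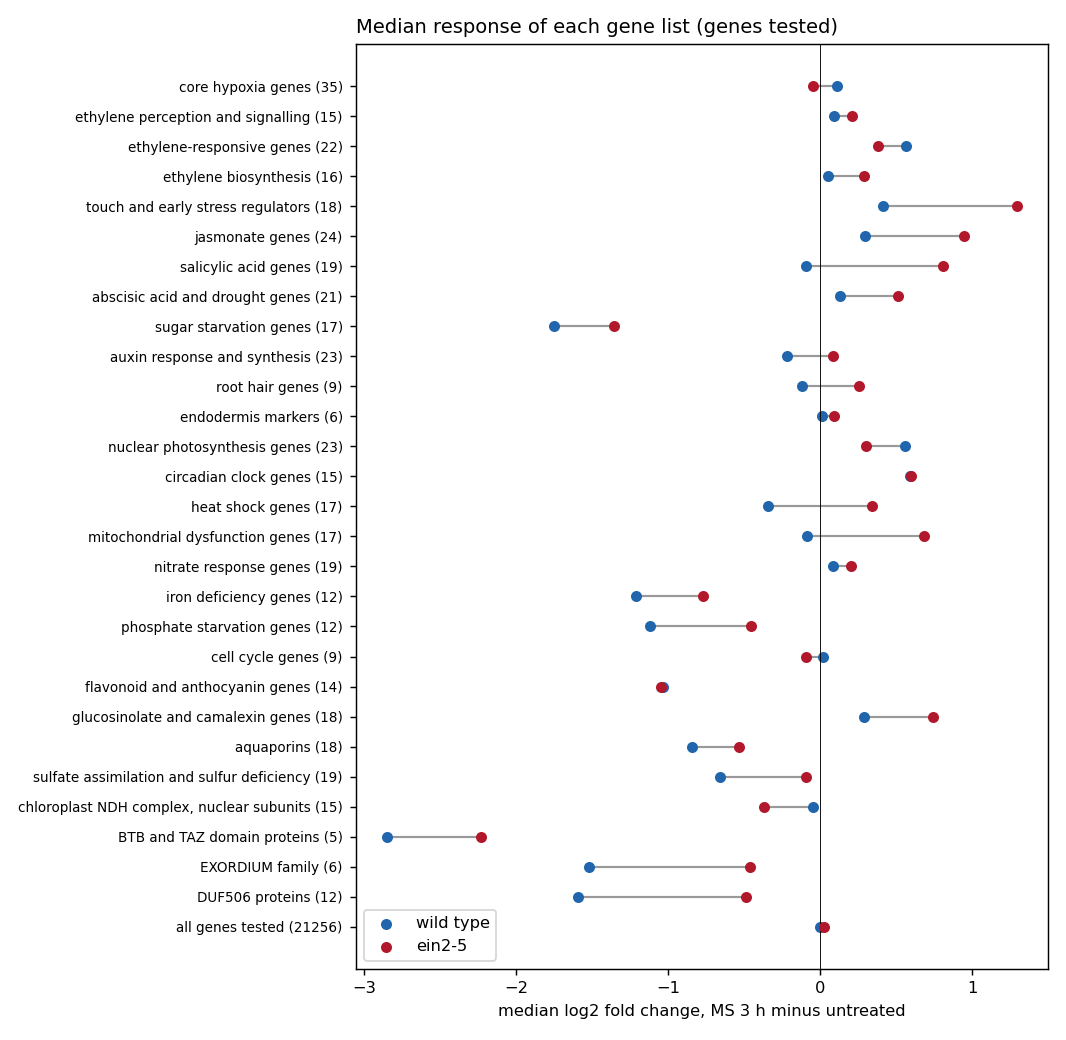
Median log2 fold change from untreated to MS 3 h in wild type (blue) and ein2-5 (red) for each gene list, with the number of genes tested. The medians of the clock and flavonoid lists nearly coincide, and those of the EXORDIUM, DUF506, salicylic acid and touch lists lie farther apart than those of all genes tested (0.00 and 0.02).

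At 24 h under MS the same interaction, taken against the same untreated libraries, had 852 called genes (4.01%), 679 above (3.19%) and 173 below 0 (0.814%). In the difference between both times the untreated libraries cancel, so it compares covered seedlings only, and 375 genes (1.76%) passed, 247 of them lower at 3 h (1.16%). This difference was not fitted again without replicate 3 of ein2-5 under MS at 3 h. BT2 had an interaction of 1.30 ± 0.21 at 3 h and 3.37 ± 0.21 at 24 h, and these differed (-2.07 ± 0.22, adjusted p = 5.12e-07). OXS3 went the other way, at 2.35 ± 0.22 and 1.38 ± 0.20 (difference 0.97 ± 0.23, adjusted p = 0.0189). TCH4 stood at 2.81 ± 0.48 and 3.11 ± 0.48 and ACS11 at 2.79 ± 0.46 and 3.41 ± 0.45, with no difference that passed (adjusted p = 0.877 and 0.673). AT2G15880, annotated as a leucine-rich repeat protein, changed sign, from -1.14 ± 0.26 to 1.57 ± 0.27 (difference -2.71 ± 0.27, adjusted p = 3.34e-07). Its levels were 18.8, 17.8 and 22.0 CPM at 3 h and 3.90, 5.03 and 4.73 CPM at 24 h in wild type and 8.29, 8.84 and 8.60 CPM and then 16.6, 10.1 and 12.7 CPM in ein2-5, so that the genotypes exchanged places. Its call at 3 h was lost without any one of 3 libraries. Of low-oxygen genes 9 of 35 were called above 0 at 24 h, where none was at 3 h. PDC1 stood at -0.29 ± 0.17 and then 0.66 ± 0.17 (difference -0.96 ± 0.17, adjusted p = 0.0015) and HRE1 at -0.70 ± 0.17 and 0.04 ± 0.17 (difference -0.75 ± 0.17, adjusted p = 0.0159). Of 17 sugar starvation genes 12 were called above 0 at 24 h against 2 at 3 h. AT1G15125 and OEP6, both called below 0 at 3 h, stood at -0.04 ± 0.24 and -0.36 ± 0.20 at 24 h. Under MS at 3 h the genotypes differed for AT1G15125 (-1.25 ± 0.15). For OEP6 that difference did not pass (-0.33 ± 0.14, adjusted p = 0.139), while the untreated one did (0.85 ± 0.14, adjusted p = 2.38e-04).

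**Figure D5:**
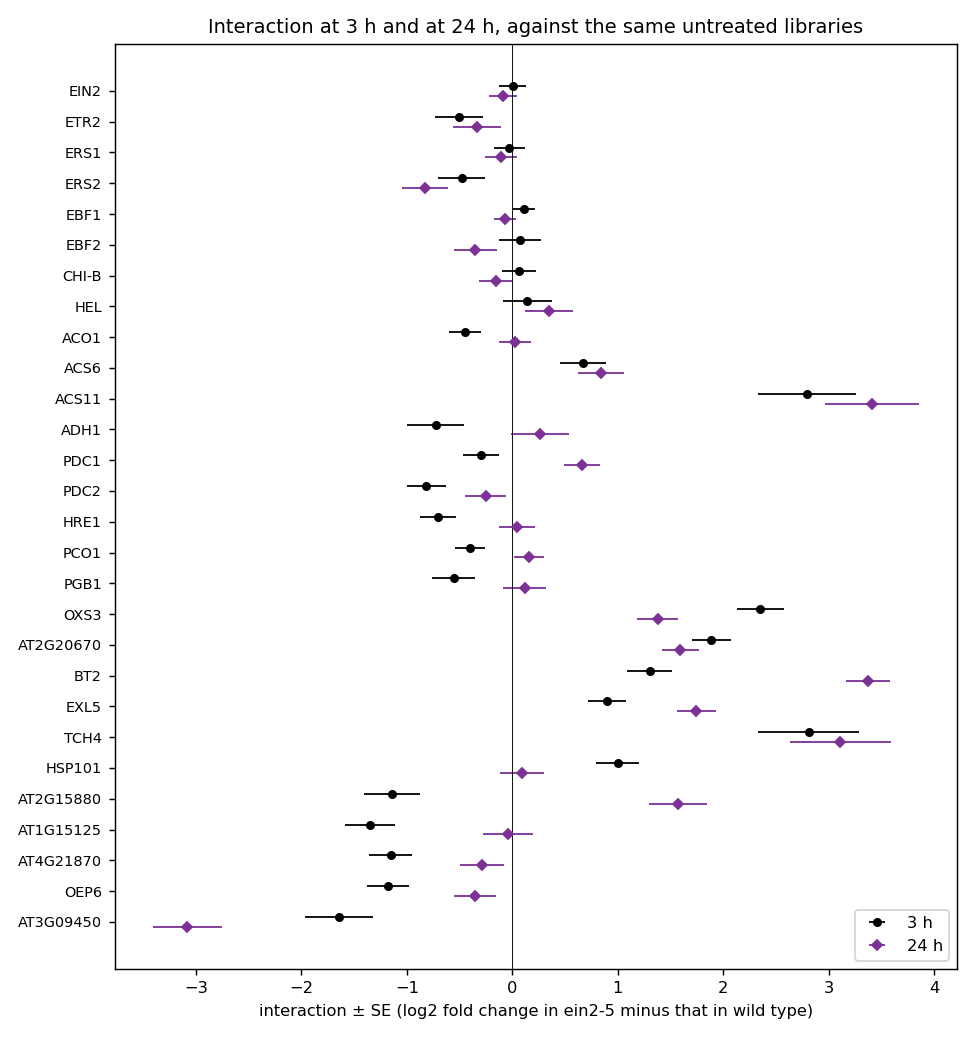
Interaction with its SE at 3 h (circles) and 24 h (diamonds) for 28 genes, both against the same untreated libraries. ADH1, PDC1, PDC2, HRE1, PCO1 and PGB1 lie below 0 at 3 h and higher at 24 h. The difference between times passed for PDC1, HRE1 and PCO1 and not for ADH1, PDC2 and PGB1. The ethylene signalling genes EIN2, ERS1, EBF1 and EBF2 lie near 0 at 3 h, while ETR2 and ERS2 lie at -0.51 and -0.48, not called.

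The count of called genes and its split depended on the scaling and the tool. Upper-quartile factors gave 185 above and 110 below 0, a filter of 1 CPM in 3 libraries 190 and 102, and DESeq2 358 and 178, beside the 252 and 61 given above. A fit of the 12 libraries alone called 87 genes, 76 above and 11 below 0, of which 85 were among the 313.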

How the data were processed

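Poly(A) RNA of whole seedlings was sequenced in read pairs, per the labels' protocols. The authors deposited 1 matrix of expected counts, 27655 genes by 30 libraries, made with featureCounts 2.0.3 without regard to strand and with multi-mapping pairs given in fractions, per the file headers (6.31% of values not whole). HISAT2, SAMtools, DESeq, DESeq2 and TAIR10 are named per the submitters' processing notes. Values were rounded, filtered with filterByExpr (minimum count 10) and scaled by TMM, and edgeR's group-mean model with its quasi-likelihood F test used all 30 libraries (edgeR 4.0.16, R 4.3.3), with Benjamini-Hochberg adjustment at 0.05. CPM are these counts per scaled library size. Each SE is the absolute log2 value divided by the square root of its F statistic. Genes that overlap or nearly repeat one another are uncertain. Besides those marked above, TCH2, APR1, APS3, SDI2, ASN1, BT5, HSP101, EDS5, SARD1, ERS1, EBF2, CHI-B, ADH1 and AT5G21940 overlap other genes.

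Whether replicates came from different cultures is not stated, so p-values cover only the spread between samples. Same-numbered libraries did not deviate together (mean residual correlation -0.023, other numbers 0.012, 1 of 18 pairs over 0.1) and were taken as unpaired. The 23 gene lists (403 genes, 399 tested), the contrast and the rule for named genes were chosen with earlier results of these data known, and 5 further lists after seeing the values. The rule named at most 12 genes in either direction by size of interaction, called also without replicate 3 of ein2-5 under MS and at 5 CPM or more in a group, up to 4 called members per list, and fixed ethylene and low-oxygen genes. The 12 genes of smallest p and members of the further lists were chosen after their values were seen. Alternatives were RLE and upper-quartile factors, other filters, a stricter threshold (0.01), DESeq2 1.42.0, a replicate block, fits of fewer libraries, no organelle genes, and each library left out. Code was tested on simulated data. Tables and figures used Python 3.11.15, pandas 2.3.3 and matplotlib 3.10.9.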

Additional observations from a re-analysis of the deposited data

Results flagged for a closer look

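The response to the medium differed between genotypes at 3 h in 313 genes, and the interaction itself differed between 3 h and 24 h in 375 genes (edgeR's quasi-likelihood test, adjusted over all genes tested). The values below are the log2 interaction at 3 h minus that at 24 h of named genes for which this difference passed. Higher at 3 h were AT3G09450, a putative transporter, at 1.44 (less negative at 3 h), OXS3 at 0.97, HSP101 at 0.91 and AT5G21940 at 0.78. Lower at 3 h were AT2G15880 at -2.71, BT2 at -2.07, AT1G15125 at -1.30, PDC1 at -0.96, AT4G21870, annotated as HSP20-like, at -0.87, EXL5 at -0.85 and OEP6 at -0.82. Also lower at 3 h were AT4G32480 at -0.79, HRE1 at -0.75, AT1G73655 at -0.68, EXL3 at -0.67, PCO1 at -0.56 and FNR2, a ferredoxin reductase of photosynthesis, at -0.43. No group held more than 3 samples, so single libraries were not screened as outliers gene by gene.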

How the results depend on the processing

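The interaction at 3 h had 313 called genes, and 87 in a fit of the 12 libraries alone (157 when replicate 3 of ein2-5 under MS was also left out), 536 with DESeq2 and 109 at an adjusted p under 0.01. Leaving out 1 library gave 148 to 543 genes: 148 and 161 without replicates 3 and 2 of covered wild type, 181 without replicate 3 and 543 without replicate 1 of covered ein2-5, and 207 without replicate 1 of untreated ein2-5. The replicate block gave 277, of which 270 were among the 313. The genotype difference untreated went from 921 to 460 at an adjusted p under 0.01 and to 588 (replicate 1 of wild type) to 745 without 1 of the 6 untreated libraries, and was 1140 without replicate 3 of covered ein2-5. That under MS went from 2215 to 771 with its libraries alone, 1166 with these and no replicate 3, 1094 at the stricter p and 1260 to 2380 without 1 of its 6 libraries (1260 and 1280 without replicates 2 and 3 of wild type, 1289 without replicate 3 of ein2-5). The interaction at 24 h went from 852 to 463 at the stricter p. The size of the response in wild type was 0.73 with genes of the stricter p and 0.66 with a prior count of 0.5, and in ein2-5 it was 0.68 with the former. The causes were not tested. Of the 71 named called genes none changed sign under these settings, and of the 17 named genes not called 8 did, with no value called. EIN2 came to -0.02 with RLE factors and DESeq2, -0.05 with upper-quartile factors, and -0.04 with the 1 CPM filter and with the 12 libraries alone. HRE2 came to -0.02 with upper-quartile factors, -0.01 with the 1 CPM filter and DESeq2, and -0.03 with the 12 libraries alone. With these 12 and no replicate 3 of covered ein2-5, EBF1 came to -0.02, EBF2 to -0.01 and HEL to -0.07. Without 1 library EIN2 ranged from -0.05 to 0.05, ERS1 from -0.21 to 0.07, EBF2 from -0.07 to 0.19, ERF1 from -1.06 to 0.54, CHI-B from -0.06 to 0.19, HEL from -0.08 to 0.40 and HRE2 from -0.26 to 0.32. In the fit of the 12 libraries 32 lost the call, and without single libraries 3 to 18 did. Under the block 3 did, ARL and SARD1 among them. Low counts limit genes such as ERF1 and TAT3.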
